A study of Mus musculus with 22 samples.

Results

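The secretory fate transcription factors examined here were Atoh1, Spdef, Gfi1, Hes6, Foxa1, Foxa2, Foxa3 and Bhlha15, 8 of the 24421 genes counted in cells sorted from the mouse colon crypt. They were chosen by name, for their known roles and with earlier results of these data known, and all 8 passed the filter on low counts and had a mean over the libraries of 50 normalized counts or more. RNA was sequenced in 22 libraries of 6 sorted populations from untreated wild type male C57BL/6N mice aged 5 to 7 weeks. All populations were live Cd31-, Cd45- and Epcam+ cells. Stem cells (Stem, n = 3) were Cd44highest, Cd24low and Ckit-, and absorptive progenitors (AbsPro, n = 3) were Cd44med/hi, Cd24low and Ckit-. SecPDG (n = 4), which by the study's account holds deep crypt secretory cells and progenitors of the secretory lineage, with goblet cells as at most a small part, was Cd44hi, Cd24med and Ckitmed, and Tuft (n = 5) was Ckit+ and Cd24hi. Enterocyte (n = 5) was Cd44low/- and Cd24-, and enteroendocrine cells (EEC, n = 2) were Cd44low/- and Cd24+. Libraries came from independent mice and sorts, and those other than Stem and AbsPro pooled several mice.

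In the intestine, Notch signalling keeps progenitors on the absorptive path through the repressor Hes1, and cells that escape it switch on Atoh1, the basic helix-loop-helix factor required for all classical secretory lineages. Gfi1, a zinc finger repressor, and Spdef, an ETS factor, act downstream of Atoh1 in the goblet branch, and Bhlha15 (Mist1) builds the secretory apparatus of exocrine cells. Hes6 is a helix-loop-helix protein that opposes Hes1. Foxa1, Foxa2 and Foxa3 are forkhead pioneer factors of endoderm, with roles in goblet and enteroendocrine cells. On GRCm38, with the strand in parentheses, the annotation places Atoh1 on chromosome 6 from 64729125 to 64731245 (plus), Spdef on chromosome 17 from 27714352 to 27728955 (minus), Gfi1 on chromosome 5 from 107716657 to 107726036 (minus) and Hes6 on chromosome 1 from 91411483 to 91414038 (minus). It places Foxa1 on chromosome 12 from 57540628 to 57546916 (minus), Foxa2 on chromosome 2 from 148042877 to 148046969 (minus), Foxa3 on chromosome 7 from 19013284 to 19023538 (minus) and Bhlha15 on chromosome 5 from 144190286 to 144194441 (plus).

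The promoters of 4 members are shown because Atoh1 and Spdef had among the largest differences between populations, while Hes6 and Foxa1 were ordered differently over the populations. The sequences are from RefSeq on GRCm38.p6, 250 bases before to 50 after a start site, written along the gene's strand with motif matches in capitals. They lie at chr6:64728875-64729174 (plus strand) for Atoh1, chr17:27728902-27729201 (minus) for Spdef, chr1:91413173-91413472 (minus) for the second start site of Hes6, and chr12:57546062-57546361 (minus) for Foxa1.
Atoh1: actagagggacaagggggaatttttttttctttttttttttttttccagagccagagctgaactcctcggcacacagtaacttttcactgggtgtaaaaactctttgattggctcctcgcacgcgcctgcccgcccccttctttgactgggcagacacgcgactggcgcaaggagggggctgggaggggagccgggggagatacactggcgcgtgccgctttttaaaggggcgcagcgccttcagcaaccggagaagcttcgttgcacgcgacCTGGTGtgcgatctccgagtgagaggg
Spdef: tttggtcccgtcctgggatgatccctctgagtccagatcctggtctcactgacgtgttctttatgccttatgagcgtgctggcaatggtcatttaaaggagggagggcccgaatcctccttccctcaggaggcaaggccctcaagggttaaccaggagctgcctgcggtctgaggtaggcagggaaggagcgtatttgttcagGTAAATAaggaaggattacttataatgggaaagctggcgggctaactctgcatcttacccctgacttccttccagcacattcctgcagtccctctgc
Hes6: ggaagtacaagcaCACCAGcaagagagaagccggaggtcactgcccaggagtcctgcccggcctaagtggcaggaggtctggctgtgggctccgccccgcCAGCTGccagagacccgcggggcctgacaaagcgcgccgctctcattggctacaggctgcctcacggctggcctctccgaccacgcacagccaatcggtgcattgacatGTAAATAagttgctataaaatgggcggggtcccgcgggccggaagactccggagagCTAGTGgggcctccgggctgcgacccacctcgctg
Foxa1: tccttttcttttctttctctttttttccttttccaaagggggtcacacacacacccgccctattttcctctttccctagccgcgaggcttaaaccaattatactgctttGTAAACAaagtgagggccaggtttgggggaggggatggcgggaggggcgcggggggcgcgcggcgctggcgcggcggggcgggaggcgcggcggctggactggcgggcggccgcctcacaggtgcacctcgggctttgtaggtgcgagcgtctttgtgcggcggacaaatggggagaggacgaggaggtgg

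Motifs searched on both strands were an E-box of the form CAGCTG, the forkhead motifs TGTTTAC and TATTTAC, and the N-box CACNAG bound by Hes proteins. Of 32851 promoters of this length, 16.3% held the E-box, 3.65% TGTTTAC, 3.04% TATTTAC and 42.5% the N-box. Spdef held TATTTAC with its first base at -47 from the start site, and Foxa1 held TGTTTAC at -141. Hes6 held the E-box at both of its listed start sites, at -171 and -150, and TATTTAC at -41 of the second. The N-box was found in Atoh1, Hes6, Foxa2 and Foxa3, and no listed promoter of Gfi1 or Bhlha15 held any of these motifs. A match is a description of the letters and not evidence of binding.

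Counts on genes ran from 4122122 to 22462518 per library, lowest in EEC 1. Genes of olfactory and vomeronasal receptors, which serve as a measure of background, held 13.1 to 151 CPM in Stem, AbsPro and SecPDG, 174 to 1430 in Tuft, 751 to 3778 in Enterocyte and 595 and 6798 in EEC. The count files of SecPDG and Tuft were named in another form than those of the other 4 populations, so a difference between these sets and a difference in handling cannot be told apart. Values below are normalized counts, that is counts divided by the effective library size (total times TMM factor) and scaled to the mean library. A member was called when the adjusted p of edgeR's quasi-likelihood test, over 22781 genes, was under 0.01. Genes with 50 or more normalized counts had a median log2 difference from Stem of -0.30 (Enterocyte) and -0.33 (EEC) under TMM, and size factors of DESeq2 moved it to 0.36 and 0.53. Of all genes called in these comparisons, 41.4% and 46.9% were higher with TMM, and 69.9% and 72.4% with size factors. In sorted bulk samples, fewer cells of a type and less RNA per cell cannot be told apart.

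Summed levels of marker lists were highest in the population they name for the tuft, enteroendocrine and stem lists, and overlapped between populations for others. The 8 goblet markers, all of them detected, came to 23129 to 37528 in Stem and 96769 to 301191 in AbsPro. SecPDG libraries had 876675 to 3385190, Tuft 863958 to 1355860, Enterocyte 239051 to 733683 and EEC 40806 and 64114, so SecPDG and Tuft overlapped. Tuft libraries had 23645 to 64039 of 7 tuft markers, and the EEC libraries 3844 and 8148. SecPDG had 683 to 1013 of them, Enterocyte 413 to 1128, AbsPro 118 to 222 and Stem 95.6 to 146. Gng13 was at 0 in Stem and in EEC. In EEC against Stem, 6 of the 7 tuft markers were called higher, where 14% of all genes were called. The 8 enteroendocrine markers reached 597353 and 1715390 in EEC and were 273 to 571 in Stem. They were 3759.9 to 18729 in AbsPro libraries, 2023 to 6076 in SecPDG, 1598 to 28295 in Tuft and 8052 to 32581 in Enterocyte. A sum follows its most abundant genes, and Chga alone had 717106 in EEC 2. Of these 8 markers, 6 were called higher in EEC than in Stem, where 14% of all genes were called. Between Enterocyte and EEC, 4 were called higher in EEC and 1 in Enterocyte, where 2.88% of all genes were called.

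The 6 enterocyte markers were 48474 to 72016 in Enterocyte and 70708 to 109117 in AbsPro, and the EEC libraries had 21492 and 143219, so these populations overlapped. Stem had 12564 to 24777 of them, SecPDG 1772 to 2845 and Tuft 990.3 to 2486. The 6 stem markers were 15028 to 19401 in Stem and at most 8750 in any other library. Of 6 immune markers, Tuft had 1123 to 3154, EEC 456 and 1414, Enterocyte 255 to 474 and Stem 20.7 to 101. The 4 stromal markers were 13.5 to 192 in Stem, 319 to 864 in Enterocyte and 47.3 and 1587 in EEC. They were 48.0, 29.3 and 1210 in AbsPro 1, 2 and 3, at most 78.3 in SecPDG and 83.6 to 375 in Tuft. The 3 endothelial markers were 9.6 to 16.2 in Stem, 273 to 613 in Enterocyte, and 780 and 1143 in EEC. The part of other cells' transcripts in the levels of the members was not tested.

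Atoh1 had its highest mean in SecPDG and its lowest in Stem, although the lowest single library was EEC 2. In Stem it had 194, 174 and 265 normalized counts, and in AbsPro 1144, 440 and 1946. The SecPDG libraries had 5642, 9207, 6471 and 6896, and those of Tuft 4147, 3537, 2903, 2522 and 5347. No SecPDG or Tuft library overlapped Stem, AbsPro, Enterocyte or EEC. Enterocyte libraries lay at 686, 556, 890, 1297 and 1137, while the EEC libraries were far apart, at 633 and 23.1. In the second of these the background came to 37.5% of the Atoh1 count.

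Spdef followed a like order. Stem libraries had 89.5, 61.5 and 240 normalized counts, and AbsPro libraries 596, 414 and 1014. SecPDG was narrow, at 6136, 7246, 6188 and 6024. Tuft libraries had 3323, 3927, 3841, 2913 and 5750, all under the lowest SecPDG library. In Enterocyte the levels were 333, 231, 254, 462 and 622, and in EEC 260 and 83.7. The lowest Enterocyte library was under the highest of Stem.

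Gfi1 and Bhlha15 were expressed at lower levels than Atoh1 and Spdef, also per length: in SecPDG they came to 30.5 ± 4.62 and 27.6 ± 8.42 TPM (SD, n = 4), against 485 ± 45.5 for Atoh1 and 498 ± 97.8 for Spdef. Gfi1 had 29.1, 51.2 and 25.6 normalized counts in Stem, 78.4, 100 and 149 in AbsPro, and 466, 768, 689 and 659 in SecPDG. Its Tuft libraries, at 771, 482, 365, 315 and 693, overlapped SecPDG. Bhlha15 had 34.4, 37.1 and 42.5 in Stem, 112, 171 and 56.3 in AbsPro, and 643, 935, 592 and 427 in SecPDG. In Tuft it had 642, 372, 421, 320 and 360. Both genes were low in Enterocyte, with means of 135 ± 28.1 for Gfi1 and 97.5 ± 36.5 for Bhlha15 (SD, n = 5), where background came to 23.9% and 37.2% of the mean. EEC gave 280 and 29.1 for Gfi1 and 172 and 0 for Bhlha15, with background at 25.9% and 52.6% of the means. Exons of Gfi1 also overlap those of the antisense transcript A430072P03Rik by 19 bases, and the counting did not use strand.

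**Figure D1:**
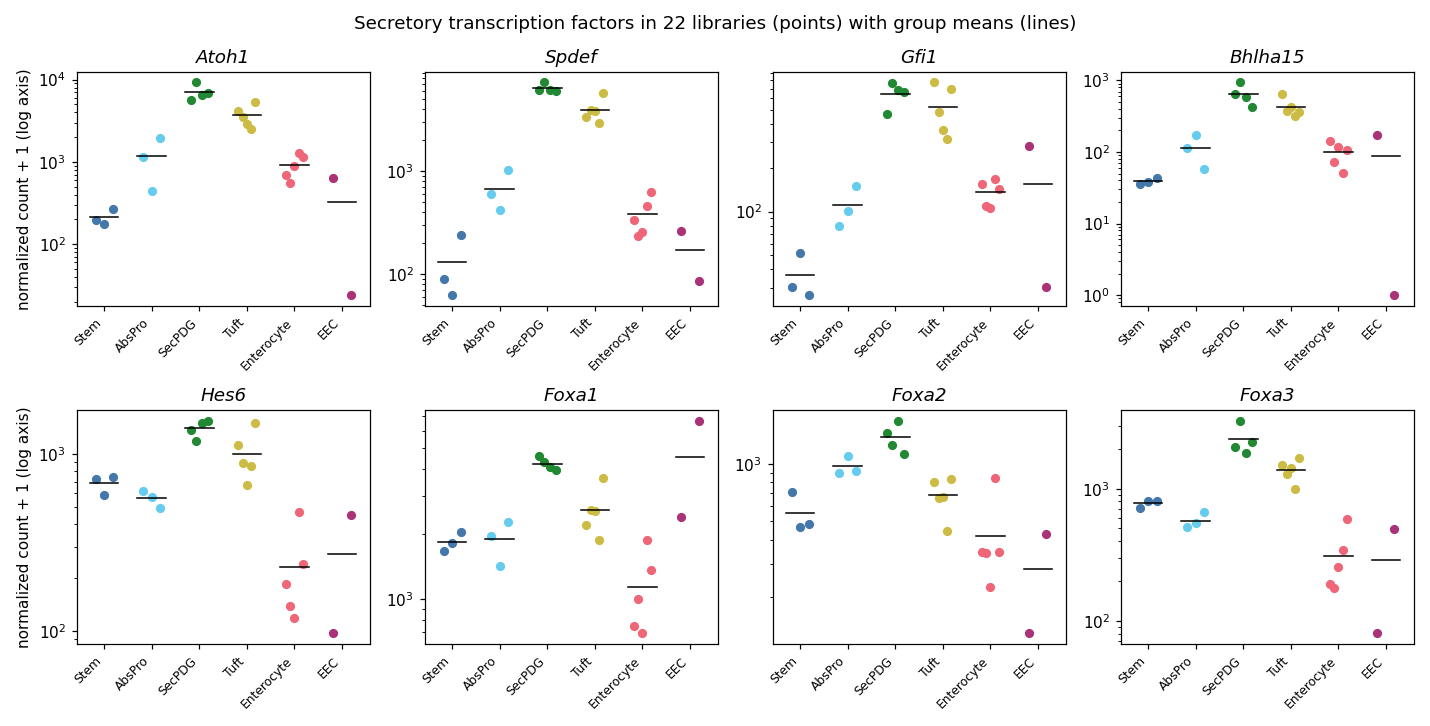
Normalized counts plus 1 (log axis) of the 8 factors in each of the 22 libraries, by population, with the mean of each population as a line. Atoh1, Spdef, Gfi1, Bhlha15 and Foxa3 have every SecPDG and Tuft library above every Stem library, and the 2 EEC libraries lie apart for most members.

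In SecPDG against Stem, 4 of the 8 members were called, all higher, where 3.1% of all genes tested were called and 2.41% called higher. Spdef was 49.1-fold higher (log2 fold change 5.62, SE 0.54, adjusted p = 1.07e-08) and Atoh1 33.4-fold (5.06, SE 0.65, adjusted p = 1.48e-06). Gfi1 was 18.2-fold higher (4.19, SE 0.55, adjusted p = 2.26e-06) and Bhlha15 17-fold (4.09, SE 0.74, adjusted p = 0.000273). Each was higher in 4 of 4 libraries and the populations did not overlap. The other 4 members were not called, although they too were higher in 4 of 4 libraries without overlap. Foxa3 differed by 1.61 (SE 0.42, adjusted p = 0.015), Foxa2 by 1.32 (SE 0.39, adjusted p = 0.035), Foxa1 by 1.20 (SE 0.37, adjusted p = 0.0457) and Hes6 by 1.03 (SE 0.41, adjusted p = 0.145) on the log2 scale. The number of calls depended on the test: DESeq2's Wald test called all 8 members, where it called 7.84% of all genes. The bias-adjusted form of edgeR, tried after the values were seen, called 6, with 4.97% of all genes called. Goblet markers moved with these members, and their part was not tested.

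In Tuft against Stem the called members were again 4, all higher, with 6.44% of all genes called and 4.42% called higher. The log2 fold changes were 4.92 for Spdef (SE 0.51, adjusted p = 1.93e-08), 4.13 for Atoh1 (SE 0.62, adjusted p = 1.13e-05), 3.89 for Gfi1 (SE 0.54, adjusted p = 3.47e-06) and 3.47 for Bhlha15 (SE 0.71, adjusted p = 0.000825). Hes6 and the 3 Foxa genes were not called, with differences of 0.30 to 0.83. DESeq2's Wald test also called Foxa1 (0.68, adjusted p = 0.00123) and Foxa3 (1.04, adjusted p = 0.00324) in this comparison, with 16.2% of all genes called. A fit of the 2 cell types alone called Foxa3 (0.84, adjusted p = 0.00653), with 13.4% of all genes called. SecPDG against Tuft gave no call among the members by edgeR's test on all 22 libraries, with 0.9% of all genes called. In that fit 4 members had an unadjusted p under 0.05. Foxa2 differed most in it, by 1.02 (SE 0.33, adjusted p = 0.0577), and Gfi1 least, by 0.30 (SE 0.40, adjusted p = 0.619). DESeq2's test called 1, Foxa1, with 6.94% of all genes called. With the 2 cell types alone, edgeR's test called Atoh1 (0.89, adjusted p = 0.00438) and Foxa2 (1.01, adjusted p = 0.00659), with 3.32% of all genes called. These p-values do not show that the levels were alike.

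In AbsPro against Stem only Spdef was called, 5.17-fold higher (log2 fold change 2.37, SE 0.47, adjusted p = 0.00556), where 0.364% of all genes were called. Atoh1 differed by 2.48 (SE 0.59, adjusted p = 0.0327), higher in 3 of 3 libraries, without a call. Its call came with the bias-adjusted form (adjusted p = 0.0015) and when AbsPro 2 was left out (adjusted p = 0.00977). The call of Spdef was lost without Stem 1, Stem 2 or AbsPro 3, at adjusted p = 0.0846, 0.0384 and 0.0267, and with the estimated background taken off, at 0.0118, where its log2 fold change was 2.30. Over the AbsPro libraries, Atoh1 and Spdef were highest in AbsPro 3 and lowest in AbsPro 2, and so was the goblet marker sum, at 301191 and 96769. Bhlha15 had the opposite order, with 56.3 in AbsPro 3 and 171 in AbsPro 2, and Foxa2 was also highest in AbsPro 2. The part of goblet transcripts in this was not tested.

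SecPDG against AbsPro called 4 members, all higher, where 2.22% of all genes were called and 1.21% called higher. They were Spdef (log2 fold change 3.25, SE 0.47, adjusted p = 2.52e-05), Gfi1 (2.56, SE 0.51, adjusted p = 0.00127), Foxa3 (2.05, SE 0.43, adjusted p = 0.00227) and Atoh1 (2.58, SE 0.57, adjusted p = 0.00435). Bhlha15 differed by 2.52 (SE 0.68, adjusted p = 0.0249), Hes6 by 1.32 (SE 0.42, adjusted p = 0.0697), Foxa1 by 1.16 (SE 0.37, adjusted p = 0.0714) and Foxa2 by 0.51 (SE 0.38, adjusted p = 0.558). Without AbsPro 1 or without AbsPro 2 only 1 call was left, that of Spdef, where 1.71% and 1.23% of all genes were called.

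In Enterocyte against Stem, 5 members were called, 3 higher and 2 lower, where 13.5% of all genes were called, 5.6% higher and 7.93% lower. Atoh1 (log2 fold change 2.11, SE 0.55, adjusted p = 0.00444), Gfi1 (1.93, SE 0.49, adjusted p = 0.00368) and Spdef (1.54, SE 0.43, adjusted p = 0.00658) were higher. Hes6 (-1.58, SE 0.38, adjusted p = 0.0023) and Foxa3 (-1.32, SE 0.38, adjusted p = 0.00752) were lower, in 5 of 5 libraries. Both stayed below Stem with size factors, Hes6 at -1.14 and Foxa3 at -0.82, the second without a call (adjusted p = 0.0198). Left without Stem 1, the comparison called 0 members, where 8.62% of all genes were called. With background taken off it called 3, where 9.16% of all genes were called. Gfi1 then stood at 2.03 (adjusted p = 0.0107), as large as before, and Foxa3 at -0.99 (adjusted p = 0.057). Of the marker lists, 5 of 8 goblet, 6 of 8 enteroendocrine, 5 of 7 tuft and 3 of 3 endothelial markers were also called higher in Enterocyte than in Stem, and their part was not tested.

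**Figure D2:**
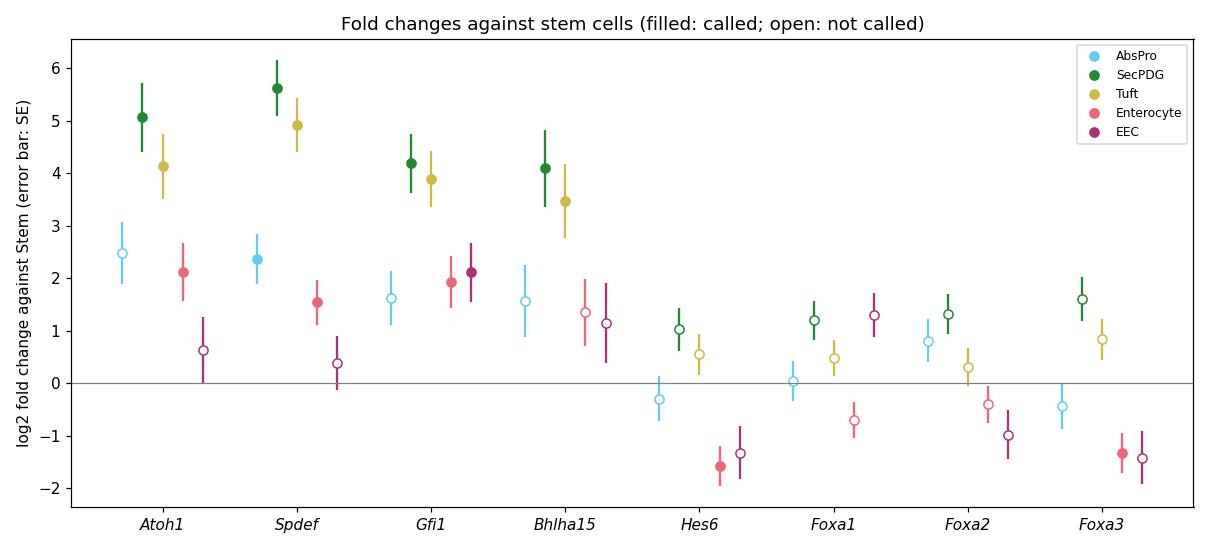
Log2 fold changes of the 8 factors against Stem in the other 5 populations, with the SE as error bars and called values filled. SecPDG and Tuft lie between 3.47 and 5.62 for Atoh1, Spdef, Gfi1 and Bhlha15, and at 1.61 or below for the other members.

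EEC against Stem rested on 2 libraries that differed from each other. Where 1 of them is left out, the remaining library is assumed to vary like those of the other populations. Only Gfi1 was called (log2 fold change 2.11, SE 0.57, adjusted p = 0.00496), where 14% of all genes were called, and it was higher in 1 of 2 libraries. Without EEC 1 its value turned to -0.45, and those of Atoh1, Spdef and Bhlha15 turned to -3.34, -0.78 and -8.31, of which the last depends on a library at 0 and is no bound. Foxa1 differed by 1.31 (SE 0.42, adjusted p = 0.0146), higher in 2 of 2 libraries, and was called without EEC 1 (1.70, adjusted p = 0.000516) but not without EEC 2 (0.38, adjusted p = 0.485). With the replicate number as a block, Gfi1 was not called (adjusted p = 0.0208) and no member was. SecPDG against EEC called 7 members, all higher, where 15% of all genes were called and 8.34% called higher, from Spdef at 37.4-fold and Atoh1 at 21.7-fold down to Gfi1 at 4.21-fold. The calls of Gfi1 and Bhlha15 were each lost in 6 of 12 other settings and in 3 and 5 of 6 with 1 library left out, and that of Atoh1 was lost with the 2 cell types alone (adjusted p = 0.0363). With DESeq2's size factors their log2 fold changes went from 2.07 to 0.97 (adjusted p = 0.182) and from 2.94 to 1.79 (adjusted p = 0.11). Without EEC 1 and without EEC 2, Gfi1 was at 4.66 and 1.21 (the second without a call, adjusted p = 0.0688), and Atoh1, at 4.44 with both, was at 8.44 and 3.48. The member not called was Foxa1 (-0.10, SE 0.40, adjusted p = 0.85), which DESeq2's Wald test called lower in SecPDG (-0.66, adjusted p = 0.00691). Against Enterocyte, SecPDG called all 8 members higher, where 14.7% of all genes were called and 9.51% called higher.

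Hes6 was less restricted than the first 4 members. It had 721, 590 and 747 normalized counts in Stem, 616, 572 and 493 in AbsPro, 1377, 1185, 1494 and 1545 in SecPDG, and 1120, 886, 666, 859 and 1501 in Tuft. Every SecPDG library was above every Stem and AbsPro library. Enterocyte libraries ran from 118 to 470, and the EEC libraries had 95.8 and 449.

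Foxa1 was the one member whose highest mean was in EEC, from libraries at 2397 and 6671 normalized counts. SecPDG had 4588, 4293, 4061 and 3931, Tuft 2198, 2587, 2551, 1877 and 3639, Stem 1661, 1817 and 2029, AbsPro 1957, 1414 and 2275, and Enterocyte 690 to 1867. Both EEC libraries were above every Enterocyte library, and this difference was called (Enterocyte against EEC, 4.01-fold lower, SE of the log2 value 0.37, adjusted p = 0.000429), where 2.88% of all genes were called. Foxa2 was at 467 to 715 in Stem and 897 to 1104 in AbsPro. SecPDG libraries of it ran from 1129 to 1684, Tuft from 444 to 832 and Enterocyte from 225 to 843, and EEC had 128 and 431. Its AbsPro libraries lay above all of Stem, Tuft, Enterocyte and EEC. Foxa3 was at 715 to 809 in Stem and 512 to 661 in AbsPro. It had 1863 to 3262 in SecPDG libraries, 993 to 1708 in Tuft, 178 to 587 in Enterocyte, and 79.5 and 496 in EEC.

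Per length, Foxa1 made up 82.6% and 88.5% of the summed TPM of the 3 Foxa genes in the EEC libraries, and 36.4% to 56.1% in the libraries of the other 5 populations. Foxa3 took 36.9% ± 6.61 in SecPDG (SD, n = 4), 37.9% ± 2.22 in Tuft (SD, n = 5) and 31.5% ± 2.20 in Stem (SD, n = 3). It took 21.3% ± 1.40 in AbsPro (SD, n = 3) and 22.2% ± 8.07 in Enterocyte (SD, n = 5). Foxa2 reached 34.3% ± 6.58 in AbsPro (SD, n = 3) and 27.2% ± 6.58 in Enterocyte (SD, n = 5). Libraries of Stem and SecPDG overlapped for the Foxa3 share, and those of AbsPro and Enterocyte for the Foxa2 share. In EEC, Foxa2 took 6.93% and 7.80% and Foxa3 4.60% and 9.62%, and in EEC 1 background came to 37% of the Foxa2 count and 55.7% of the Foxa3 count.

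**Figure D3:**
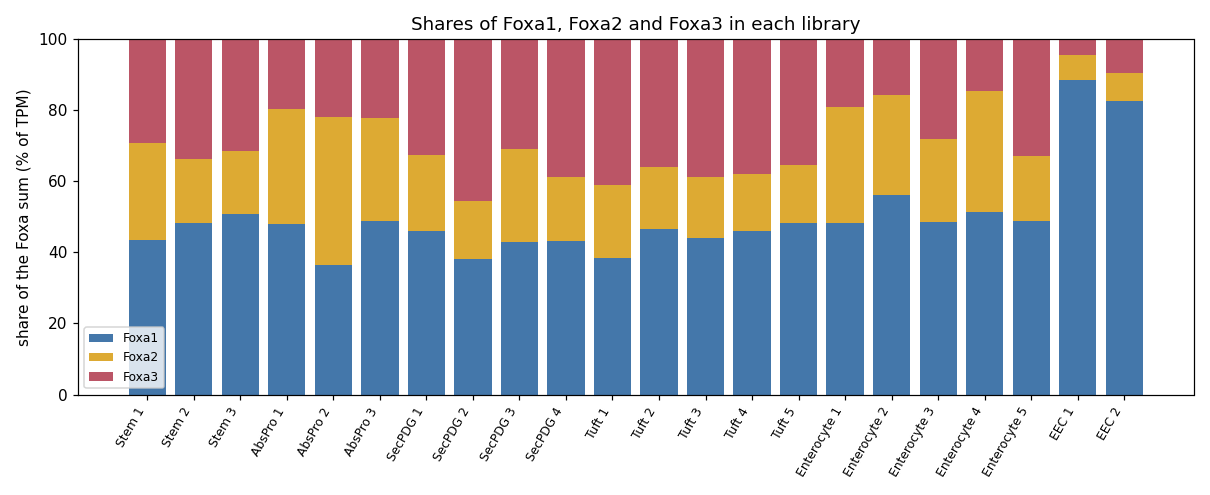
Share of Foxa1, Foxa2 and Foxa3 in their summed TPM (percent) for each library. Foxa1 holds 82.6% and 88.5% in the 2 EEC libraries and at most 56.1% elsewhere.

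Ordered by mean level, SecPDG and Tuft came first and second for Atoh1, Spdef, Gfi1, Hes6, Foxa3 and Bhlha15. Of the neighbours in these orders, only Tuft and AbsPro for Spdef differed by the test (adjusted p = 0.000177), where 3.96% of all genes were called between these populations. The neighbours SecPDG and Tuft did not pass it for any of these 6 members, with adjusted p from 0.137 (Foxa3) to 0.619 (Gfi1). For Foxa2 the order was SecPDG, AbsPro, Tuft, Stem, Enterocyte and EEC, and for Foxa1 it was EEC, SecPDG, Tuft, AbsPro, Stem and Enterocyte, with no neighbours called.

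Upstream of Atoh1, 10 genes of the Notch pathway were examined. In SecPDG against Stem 2 rose and 3 fell, where 3.1% of all genes were called. The median log2 fold change was -1.08, against 0.02 over all genes tested. The Notch ligand Dll1 rose most, from 209 ± 33.7 (SD, n = 3) to 2733 ± 263 (SD, n = 4) normalized counts (3.71, SE 0.39, adjusted p = 3.1e-08), and the receptor Notch1 fell most, from 5231 ± 660 (SD, n = 3) to 1384 ± 340 (SD, n = 4) (-1.92, SE 0.34, adjusted p = 0.000195). Against AbsPro 2 rose and none fell, where 2.22% of all genes were called, and Dll1 again rose most (2.04, SE 0.36, adjusted p = 0.000337). Hes1, the repressor of Atoh1, was not called in SecPDG against Stem (-1.37, SE 0.40, adjusted p = 0.0344) and fell in Tuft (-1.72, SE 0.38, adjusted p = 0.00182). It fell most in EEC against Stem (-4.02, SE 0.58, adjusted p = 5.93e-06), where Atoh1 was not called. The ratio of Atoh1 to Hes1 normalized counts was 0.128 to 0.18 in Stem and 0.38 to 2.09 in AbsPro. It reached 10.3 to 16.4 in SecPDG and 7.18 to 11.4 in Tuft, with 1.09 to 2.14 in Enterocyte. It was 21.9 and 0.165 in the EEC libraries. The first rests on Hes1 at 28.9 normalized counts in the library with the highest background, and the second on an Atoh1 count of 19, of which background came to 37.5%.

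**Figure D4:**
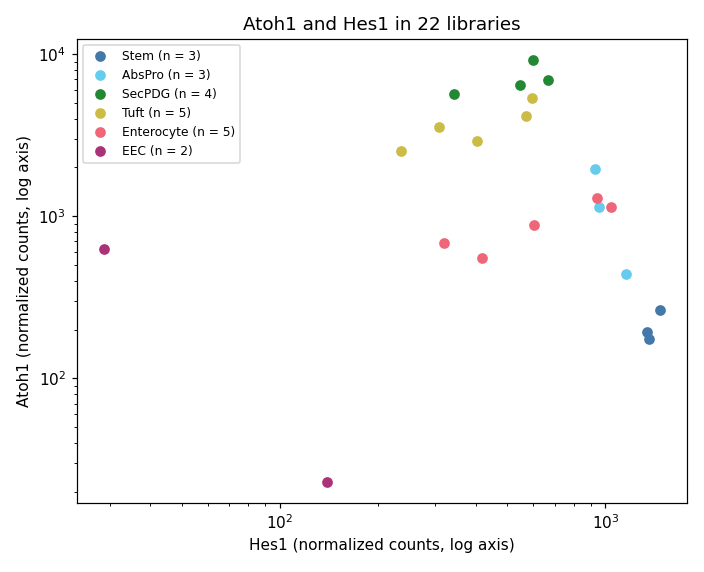
Atoh1 against Hes1 in normalized counts (both log axes) for each of the 22 libraries, coloured by population. Stem libraries lie at high Hes1 and low Atoh1, SecPDG and Tuft libraries at high Atoh1, and the 2 EEC libraries far from each other.

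Among 12 partners and inhibitors of these factors, 2 rose in SecPDG against Stem and none fell, where 3.1% of all genes were called. Their median was 0.09, against 0.02 over all genes tested. The co-repressor Cbfa2t3 rose from 204 ± 110 (SD, n = 3) to 6180 ± 1220 (SD, n = 4) (4.92, SE 0.47, adjusted p = 1.07e-08), and the inhibitor Id4, near 0 in Stem, by 5.46 (SE 1.06, adjusted p = 0.000737). Against AbsPro, Cbfa2t3 rose by 3.12 (SE 0.42, adjusted p = 8.76e-06) and the inhibitor Id1 fell by 1.72 (SE 0.39, adjusted p = 0.00575). Of 12 factors of single secretory branches, 2 rose in SecPDG against Stem, the tuft factor Pou2f3 (3.59, SE 0.70, adjusted p = 0.000785) and the goblet factor Klf4 (1.82, SE 0.44, adjusted p = 0.00727). The median was 2.41, against 0.02 over all genes tested. Against AbsPro, which had 1.6 normalized counts of it, Pou2f3 alone rose (6.28, SE 0.90, adjusted p = 1.88e-05). In EEC against Stem, 8 of these 12 rose and 1 fell, where 14% of all genes were called. Their median there was 5.45, against 0.70 over all genes tested.

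Of 12 genes for secretory products and apparatus, 11 rose in SecPDG against Stem, 10 in Tuft and 4 in Enterocyte, and in EEC none rose and 1 fell. Muc2, Tff3, Clca1, Fcgbp, Agr2 and Spink4 are also among the goblet markers, so these lists are not independent. In the same order of populations, 3.1%, 6.44%, 13.5% and 14% of all genes were called. The medians were 4.28, 3.20, 1.63 and 0.20, against 0.02, 0.84, 1.16 and 0.70 over all genes tested and -0.05, -0.09, -0.30 and -0.33 over genes with 50 or more normalized counts, so the EEC value was below the first and above the second. Clca1, a goblet secreted protein, rose most in SecPDG (7.71, SE 1.22, adjusted p = 3.79e-05), with a level of 281377 ± 386020 (SD, n = 4) that was uneven between libraries. Against AbsPro 4 of the 12 rose, where 2.22% of all genes were called. The largest rise was that of Creb3l4, a transcription factor of the endoplasmic reticulum (2.77, SE 0.58, adjusted p = 0.00227). The gene that was not called in SecPDG against Stem was Rab26, which had 2.4 normalized counts there.

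The genes with the most similar pattern to each member over the 22 libraries, by Pearson's r of log2 normalized counts among 13188 genes, had r from 0.927 to 0.981. They were Gpt2, Rapgef3 and Ptger4 for Atoh1, Hpd, Rap1gap and Cgref1 for Spdef, Gpr20, Slc12a8 and Ccl6 for Gfi1, and Slc9a3r2, Chrnb4 and Rapgef3 for Bhlha15. For Hes6 they were Fto, Stard10 and Lsr, for Foxa1 Krt7, Phf2 and Tox3, for Foxa2 Cant1, Mgat4b and Tmem63a, and for Foxa3 Lsr, Dusp7 and Lman1. Among the members, r was 0.839 to 0.933 between any pair of Atoh1, Spdef, Gfi1 and Bhlha15, and 0.927 between Hes6 and Foxa3. Atoh1 and Foxa1 had r = 0.234 and Foxa1 and Bhlha15 r = 0.0876. Libraries of a population share its makeup and range of depth, and the values are given as a description.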

How the data were processed

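RNA of 22 libraries was measured, and groups were read from the sample titles. The authors aligned reads to mm10 with STAR 2.5.2a and counted them on genes without strand with HTSeq 0.6.1p1, and the deposited values are raw counts. The 15 splicing and polyadenylation tables, which hold the authors' comparisons, were not used, so exon and distal site use of the members is not analysed here. Entries without a gene name, 5 in each file, were left out, and reads on no feature were 40.9% to 89.7% per library.

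The test was that of edgeR 4.0.16 in R 4.3.3 (filterByExpr, TMM, estimateDisp, glmQLFit with its default form, glmQLFTest) in 1 fit of the 22 libraries with cell type as the only term, with Benjamini-Hochberg adjustment over 22781 genes. Calls needed an adjusted p under 0.01 and 50 or more normalized counts on average. The SE of a log2 fold change was its absolute value divided by the square root of the F statistic. It therefore restates the test and is not a separate estimate. The default form was run first. After its values were seen, the bias-adjusted form, which calls more genes (1132 against 707 in SecPDG against Stem), and the robust form were tried. The bias-adjusted form was for a time made the main one and then set back to an added alternative, so the choice between the forms was settled with the results of both known. The other alternatives were DESeq2 1.42.0, other scalings, no filter, no minimum mean, an adjusted p under 0.05, 2 cell types alone, thinned counts, background taken off, a replicate block and each library left out. On simulated counts for SecPDG against Stem, the test missed nearly all 2-fold changes and part of the larger ones. A member that was not called may therefore still differ.

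TPM used exon lengths of the GRCm38 annotation, found for 98.5% of genes. Members and gene lists were chosen with earlier results of these data known. Named genes were the members, the 3 genes most like each by Pearson's r (prior count 2), and of each list the called genes with the largest increase and decrease in SecPDG against Stem and AbsPro; Hes1 and Rab26 were named after their values were seen. Replicate numbers were not used as pairs: no comparison with at least 3 pairs had all correlations over 0.1. The highest was 0.424, for number 2 in SecPDG against Tuft. EEC, with 2 pairs in a comparison, was outside this rule, and the rule does not show that no sorts were shared. Figures used Python 3.11.15 and matplotlib 3.10.9.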

Additional observations from a re-analysis of the deposited data

Results flagged for a closer look

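Of 24 groups of members with 4 or 5 libraries, 2 held a library far from the others, where chance gives about 1 in 20. Spdef in SecPDG 2 had 7246 normalized counts, above 6188 in the next library, and the gap was 0.866 of the range. Foxa2 in Enterocyte 4 had 843 normalized counts, above 346 in the next library, and the gap was 0.804 of the range. The causes were not tested.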

How the results depend on the processing

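The number of members called in SecPDG against Stem was 4 (3.1% of all genes called). It was 8 with DESeq2's Wald test (7.84%) and with the 2 cell types alone (13.1%). It was 7 with DESeq2's size factors (5.29%), library totals (5.29%) or an adjusted p under 0.05 (5.49%). Percentages in parentheses here are the shares of all genes called in the same setting. For EEC against Stem, 1 call (14%) became 2 with the Wald test (24%), size factors (19.2%) and background taken off (12%). It became 3 with library totals (19%) and thinned counts (11.7%), and 4 at an adjusted p under 0.05 (23.6%). It became 0 with the 2 cell types alone (1.47%) and with the replicate block (13.6%). With the Wald test and size factors, the 2 calls were near the share over all genes. For AbsPro against Stem, 1 call (0.364%) became 2 at an adjusted p under 0.05 (0.755%) and with the 2 cell types alone (2.24%). It was also 2 with the bias-adjusted form (0.588%), and 0 with background taken off (0.231%). With the 2 cell types alone, SecPDG gave 7 calls against AbsPro (9.5%), 2 against Tuft (3.32%) and 3 against EEC (6.37%). The Wald test gave 1 against Tuft (6.94%). Enterocyte against Stem gave 3 with background taken off (9.16%).

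The bias-adjusted and robust forms, added after the values were seen, gave 6 and 4 calls in SecPDG against Stem. They gave 6 and 3 in SecPDG against AbsPro, against 4 in each comparison with the default. In SecPDG against Stem they called 4.97% and 3.03% of all genes, against 3.1% with the default. In SecPDG against AbsPro the shares were 3.72% and 2.17%, against 2.22%. Over all genes, the bias-adjusted form called 134 in AbsPro against Stem and 847 in SecPDG against AbsPro, where the default called 83 and 506, so the choice of form sets how many members pass. The cause was not tested.

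With 1 library left out, calls against Stem were 0 to 2 for AbsPro, 4 to 4 for SecPDG, 4 to 4 for Tuft, 0 to 5 for Enterocyte and 0 to 6 for EEC, and from 1 to 4 in SecPDG against AbsPro, 0 to 0 against Tuft and 5 to 7 against EEC. Without EEC 1 or EEC 2, the spread of EEC is not measured, and the counts of those fits rest on the spread of the other populations.

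Some directions turned. Foxa1 in AbsPro against Stem, 0.036, became -0.030 with library totals and with no filter, -0.011 with the 2 cell types alone, -0.017 with thinned counts and -0.041 with background taken off, and ran from -0.060 to 0.21 with 1 library left out. Foxa2 in Enterocyte against Stem became 0.051 with the Wald test and size factors. Foxa1 in SecPDG against EEC became 0.044 with no filter, was called at -0.66 with the Wald test, and ran from -0.44 to 0.82 with 1 library left out. In EEC against Stem, values with 1 library left out ran from -3.34 to 1.58 for Atoh1, -0.78 to 1.06 for Spdef, -0.45 to 2.98 for Gfi1 and -8.31 to 2.17 for Bhlha15, each lowest without EEC 1.

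The replicate block left EEC against Stem with 0 calls, where 13.6% of all genes were called. It left SecPDG against EEC with 6 in place of 7, where 11.9% of all genes were called. No other count of members changed. Precision in EEC is limited by 2 libraries, and in Enterocyte and EEC by background.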
